A study of Mus musculus with 12 samples.

Results

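The 10 genes described here are targets of the transcription factor p53 that act in metabolism, DNA repair and signalling: Sesn1, Sesn2, Phlda3, Trp53inp1, 9630033F20Rik (the older symbol of Tigar), Zmat3, Ddb2, Xpc, Polk and Rrm2b. They were taken by symbol from the 23420 gene symbols of both count tables, and all 10 were found and passed the filter on low counts in both assays. The cells were R1 mouse embryonic stem cells, kept on gelatin in serum medium with LIF and transfected for 48 h. The knockdown cells received one of 3 different siRNAs to Krr1, whose product helps to build the small subunit of the ribosome, and their libraries are called siKrr1 A, siKrr1 C and siKrr1 D after the letters of the deposited columns. The control libraries are siGFP, siNC and Lipo; the labels count all of them as control siRNAs, although the name Lipo states none. One share of every lysate went into RNA-seq and the other into ribosome profiling, in which pieces of mRNA shielded by ribosomes (footprints) are read, giving 3 libraries per group and assay and 12 in all. The knockdown libraries of an assay thus differ in their siRNA. The control libraries differ in name, and whether Lipo received an siRNA is not settled by its name.

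The p53 protein is kept low by the ubiquitin ligase Mdm2 and is released from it when ribosome assembly is disturbed, because free ribosomal proteins of the large subunit bind Mdm2. Besides cell cycle and death genes, p53 switches on genes that restrain growth signalling, tune sugar metabolism and repair DNA. Embryonic stem cells are known for abundant p53 that is only partly coupled to cell cycle arrest. In this setting the sestrins restrain mTORC1, Phlda3 restrains AKT, Tigar diverts sugar into the pentose phosphate shunt, Ddb2 and Xpc find DNA damage, Polk copies past it, and Rrm2b supplies deoxynucleotides outside S phase. Part of this knowledge, including that DDB2 and TIGAR respond to p53, comes from human cells.

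Krr1 itself was lower in each lysate that received its siRNA. Relative to the mean of the controls, its RNA was left at 21.7%, 37.3% and 41.5% and its footprints at 18.9%, 37.5% and 31.4% (siKrr1 A, C and D). Reads on genes numbered 31318772 to 39670139 per RNA library and 21615934 to 28911254 per footprint library. The summed RNA level of 8 embryonic stem cell markers, in counts scaled to a common library size (CPM), was 6361 to 7628 in siKrr1 libraries and 7943 to 8059 in controls, and 3 of them fell (Nanog, Esrrb and Zfp42). Of 8 fibroblast markers none was called in either assay, and Col3a1, Postn and Lum were at 0 in all RNA libraries; the list summed to 4.44 to 9.10 CPM in siKrr1 and 7.84 to 8.94 CPM in control RNA. The 4 mesoderm markers summed to 7.69 to 15.0 CPM in siKrr1 and 4.20 to 4.85 CPM in control RNA, of which Kdr was called. The 6 primitive endoderm markers summed to 4.07 to 4.78 CPM in siKrr1 and 4.41 to 5.22 CPM in control RNA. The 4 trophectoderm markers summed to 10.1 to 10.9 CPM in siKrr1 and 10.8 to 13.04 CPM in control RNA, and the 4 neural markers to 76.4 to 93.8 CPM in siKrr1 and 134 to 147 CPM in control RNA, where Tubb3 fell and Neurod1 rose. Of the trophectoderm markers Krt7 was called higher in RNA at a very low level (mean 0.66 CPM in siKrr1 and 0.11 CPM in controls). In footprints Krt7 did not pass the filter and was not tested. Eomes, the most abundant of these markers, was at -0.45 in RNA (edgeR adjusted p = 0.129) and fell in footprints (-0.57, 0.034). The part of these shifts in the results below was not tested. In bulk samples, a change in the share of cells that express a gene and a change in its RNA per cell cannot be told apart. The labels do not say whether the lysates were separate cultures, so p-values measure only the spread between these samples.

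After knockdown of Krr1 the 10 genes were sorted into 3 sets by their calls. Phlda3, Trp53inp1, Polk, Zmat3 and Sesn2 rose in RNA, and the same 5 rose in footprints. 9630033F20Rik fell in RNA. Sesn1, Ddb2, Xpc and Rrm2b passed the test in neither assay. The 10 genes were chosen with earlier results of these data known, so their counts beside all genes are a description and not a test. In RNA 5 of 10 were called higher and 1 lower, where 2.69% of all 14038 genes tested were called higher and 2.11% lower and 4.80% either way (quasi-likelihood test of edgeR with Benjamini-Hochberg adjustment, adjusted p under 0.05). In footprints 5 were called higher and 0 lower, against 3.39% higher, 2.68% lower and 6.07% either way of 13287 genes; 9630033F20Rik was called lower there by DESeq2, and 6 of the 10 had an unadjusted edgeR p under 0.05. All siKrr1 libraries were above all controls for 5 genes and below them for 2 in RNA, beside 13.6% and 13.4% of all genes, and above for 5 and below for 1 in footprints, beside 14.3% and 13.6%. The median log2 fold change of the 10 genes was 0.30 in RNA and 0.19 in footprints, beside a median of 0.00 and 0.01 over all genes tested. In RNA, leaving out siNC or Lipo left 1 of the genes called higher, leaving out siGFP, siKrr1 A or siKrr1 D left 2, and leaving out siKrr1 C left 5; in footprints 3 were left without siGFP or Lipo, 4 without siNC and 5 without any one siKrr1 library.

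**Figure D1:**
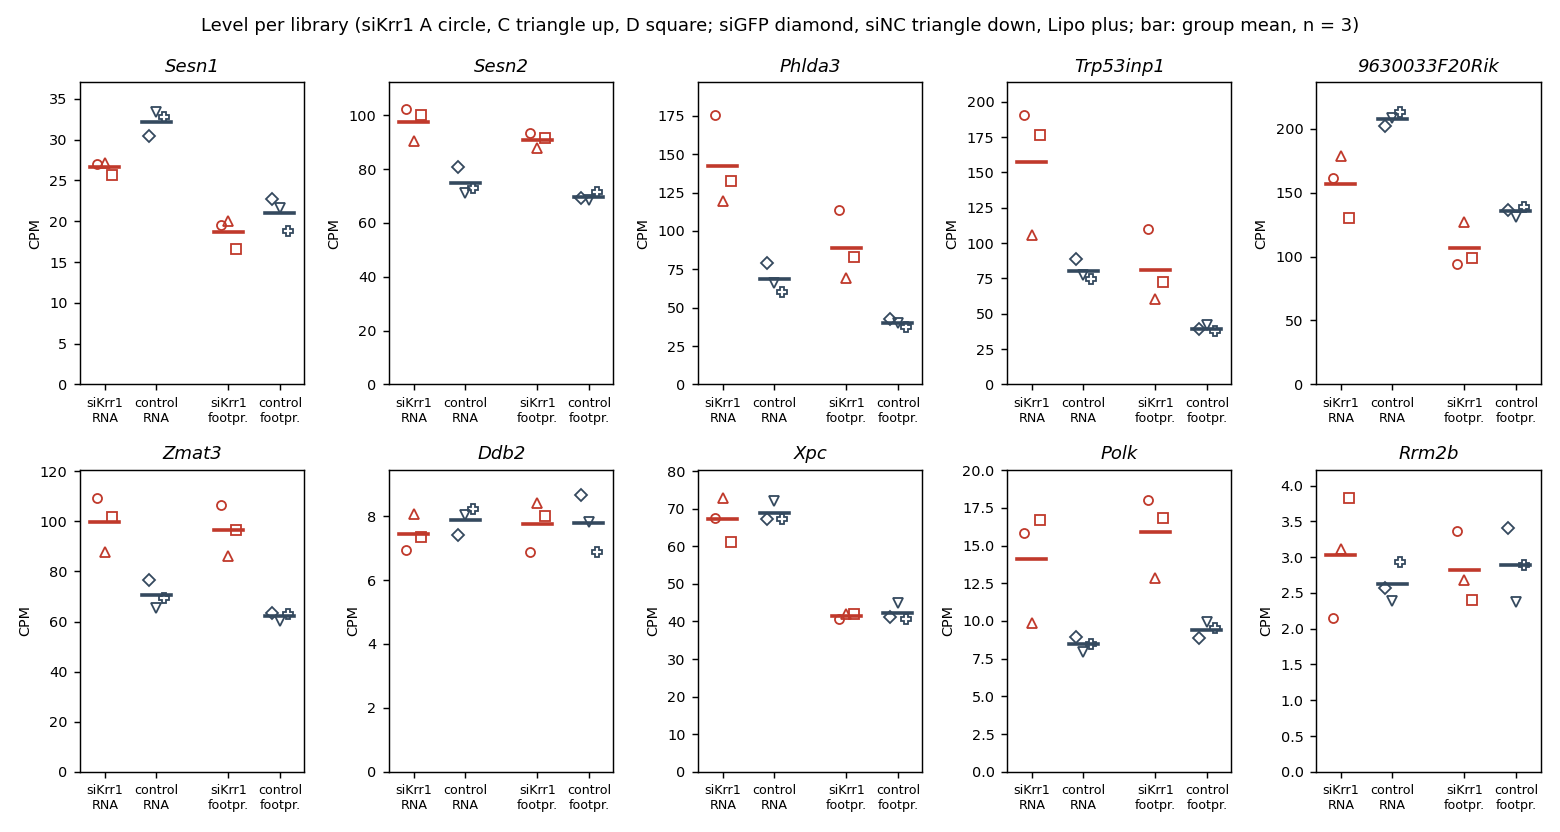
Level of each gene in CPM (vertical axis from 0) in siKrr1 and control libraries, for RNA and footprints; each marker is 1 library and each bar a group mean (n = 3). The siKrr1 libraries lie above the controls in both assays for Sesn2, Phlda3, Trp53inp1, Zmat3 and Polk, and below them for 9630033F20Rik.

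Phlda3 (chromosome 1, 135766085 to 135769134, mm10) encodes a small pleckstrin-homology protein that competes with AKT for membrane phosphoinositides. Its RNA level was 175, 119 and 133 CPM in siKrr1 A, C and D, against 79.2, 66.4 and 59.9 CPM in siGFP, siNC and Lipo. The lowest knockdown library was thus well above the highest control. The log2 fold change was 1.06 ± 0.14 (SE; edgeR adjusted p = 0.004), a 2.08-fold rise. Phlda3 footprints were 114, 69.4 and 82.9 CPM in siKrr1 A, C and D, against 42.9, 39.8 and 37.2 CPM in siGFP, siNC and Lipo, and rose by 1.15 ± 0.15 on the log2 scale (edgeR adjusted p = 0.00255). Over the 6 fits that each lacked one, the highest edgeR adjusted p was 0.0238 in RNA and 0.0293 in footprints. The paralogs of Phlda3 did not share one course. Phlda2, an imprinted growth restrainer of the placenta, fell by 0.68 in RNA (edgeR adjusted p = 0.0414) and by 0.66 in footprints (0.00702); its RNA call was lost without any library other than siKrr1 C. Phlda1 rose in footprints (0.70, edgeR adjusted p = 0.0386), while its RNA was at 0.50 (edgeR adjusted p = 0.0865); the footprint call was lost without siKrr1 A, siKrr1 D, siNC or Lipo.

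Trp53inp1 (chromosome 4, 11156441 to 11174379) encodes a stress-induced protein that acts with p53 in the nucleus and in autophagy in the cytoplasm. Its RNA was at 190.2, 106 and 177 CPM in siKrr1 A, C and D, and at 88.4, 77.7 and 74.3 CPM in siGFP, siNC and Lipo. The groups did not overlap, but siKrr1 C stood much nearer to the controls than the other knockdown libraries. The log2 fold change was 0.97 ± 0.17 (edgeR adjusted p = 0.0135), and that of footprints was 1.03 ± 0.17 (edgeR adjusted p = 0.00805), with 110.1, 60.4 and 72.6 CPM in siKrr1 A, C and D and 38.9, 41.8 and 37.8 CPM in siGFP, siNC and Lipo. In RNA the edgeR adjusted p was 0.0632 without Lipo, 0.0648 without siGFP, 0.0522 without siKrr1 D and 0.0512 without siNC. In footprints it was 0.0592 without Lipo and 0.0513 without siGFP. Its paralog Trp53inp2, which acts in autophagy and, like Sesn3, Ddb1, Polh, Poli and Trp53 below, was chosen after its values were seen, was not called in RNA (0.16, edgeR adjusted p = 0.687; 95% interval -0.26 to 0.58) or in footprints (0.36, edgeR adjusted p = 0.294; -0.06 to 0.77).

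The sestrins went separate ways. Sesn2 (chromosome 4, 132492804 to 132510456), a leucine sensor that restrains mTORC1 through the GATOR2 complex, is a target of p53 and also of the stress factor ATF4. Its RNA level was 102, 90.6 and 100.1 CPM in siKrr1 A, C and D, against 80.8, 71.2 and 73.1 CPM in siGFP, siNC and Lipo. In footprints it was at 93.4, 87.8 and 91.6 CPM in siKrr1 A, C and D, against 69.3, 68.6 and 71.6 CPM in siGFP, siNC and Lipo. All knockdown libraries were above all controls, with siKrr1 C the lowest of them in both assays. The log2 fold change was 0.38 ± 0.08 in RNA (edgeR adjusted p = 0.0257) and 0.38 ± 0.06 in footprints (0.00653). The RNA call was lost when any library other than siKrr1 C was left out, with edgeR adjusted p of 0.0582 without siKrr1 D, 0.0623 without siGFP, 0.0698 without siKrr1 A, 0.125 without siNC and 0.128 without Lipo, and the footprint call reached 0.0503 without siNC.

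Sesn1 (chromosome 10, 41810574 to 41908436), the sestrin first described as a p53 target, did not rise. Its RNA was at 27.0, 27.1 and 25.7 CPM in siKrr1 A, C and D, below the 30.5, 33.4 and 32.7 CPM of siGFP, siNC and Lipo. This difference of -0.27 ± 0.09 on the log2 scale missed the threshold (edgeR adjusted p = 0.0995; 95% interval -0.47 to -0.08). Footprints were at 19.5, 19.98 and 16.6 CPM in siKrr1 A, C and D and at 22.7, 21.6 and 18.8 CPM in siGFP, siNC and Lipo, where the groups overlapped (-0.17, edgeR adjusted p = 0.381; 95% interval -0.41 to 0.06). The intervals of Sesn1 and Sesn2 did not overlap in either assay; the difference between these genes was not tested. Sesn3, which FOXO factors are known to control, was at 0.26 in RNA (edgeR adjusted p = 0.222) and 0.28 in footprints (0.228).

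Zmat3 (chromosome 3, 32334792 to 32365665) encodes a zinc-finger RNA-binding protein that acts on splicing and mRNA stability. Its RNA was at 109, 87.8 and 102 CPM in siKrr1 A, C and D, against 76.6, 65.4 and 69.5 CPM in siGFP, siNC and Lipo. Footprints were at 107, 86.3 and 96.6 CPM in siKrr1 A, C and D, against 63.3, 60.4 and 63.0 CPM in siGFP, siNC and Lipo. In both assays all knockdown libraries were higher than all controls. Zmat3 rose by 0.50 ± 0.10 on the log2 scale in RNA (edgeR adjusted p = 0.0176) and by 0.63 ± 0.08 in footprints (0.00235). The footprint call held with each library left out (highest edgeR adjusted p = 0.0245), and the RNA call reached 0.0518 without siKrr1 A, 0.0834 without Lipo and 0.0844 without siNC.

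9630033F20Rik (Tigar; chromosome 6, 127085116 to 127109552) encodes a fructose-2,6-bisphosphatase that lowers glycolytic flux. It was the one member of the 10 called lower in RNA. Sesn1 RNA also lay below all controls but missed the threshold (-0.27, edgeR adjusted p = 0.0995). RNA was at 161, 179 and 130.3 CPM in siKrr1 A, C and D, against 202, 208 and 213 CPM in siGFP, siNC and Lipo, a log2 fold change of -0.41 ± 0.10 (edgeR adjusted p = 0.0443). All knockdown libraries were below all controls, with siKrr1 D the lowest. Footprints were at 94.5, 127 and 98.9 CPM in siKrr1 A, C and D, against 137, 131 and 139 CPM in siGFP, siNC and Lipo. Again the groups did not overlap, but siKrr1 C was near the controls, and the difference of -0.35 ± 0.10 missed the threshold (edgeR adjusted p = 0.0621). Without siKrr1 C footprints were called lower (-0.49, edgeR adjusted p = 0.00136). The RNA call was lost without any other library, with edgeR adjusted p of 0.0598 without siKrr1 D, 0.0891 without siKrr1 A, 0.132 without siGFP, 0.136 without siNC and 0.161 without Lipo.

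The DNA repair genes differed among themselves, with Polk as the member that rose. Polk (chromosome 13, 96480687 to 96542579) encodes DNA polymerase kappa, a translesion polymerase. Its RNA was at 15.8, 9.86 and 16.7 CPM in siKrr1 A, C and D, against 8.92, 7.94 and 8.46 CPM in siGFP, siNC and Lipo. Its footprints were at 18.03, 12.9 and 16.8 CPM in siKrr1 A, C and D, against 8.85, 9.90 and 9.51 CPM in siGFP, siNC and Lipo. Levels in siKrr1 A and D were close to each other, and siKrr1 C was only a little above the highest control in RNA. The log2 fold change was 0.74 ± 0.18 in RNA (edgeR adjusted p = 0.0412) and 0.75 ± 0.14 in footprints (0.0108). The RNA call was lost when any library other than siKrr1 C was left out, with edgeR adjusted p of 0.11 without siKrr1 A, 0.119 without siKrr1 D, 0.13 without siGFP, 0.135 without Lipo and 0.142 without siNC. The footprint call was lost without Lipo (0.0672) or siGFP (0.0629).

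Ddb2 (chromosome 2, 91211545 to 91237132), which recognises ultraviolet lesions in chromatin, was expressed at a low level that was alike in both groups. It was at 6.94, 8.07 and 7.36 CPM of RNA in siKrr1 A, C and D, and at 7.40, 8.05 and 8.23 CPM in siGFP, siNC and Lipo. Its log2 fold change was -0.08 in RNA (edgeR adjusted p = 0.781; 95% interval -0.37 to 0.21) and 0.00 in footprints (edgeR adjusted p = 0.995; 95% interval -0.32 to 0.31). Footprints were at 6.87, 8.42 and 7.99 CPM in siKrr1 A, C and D and at 8.67, 7.82 and 6.90 CPM in siGFP, siNC and Lipo. A change of the size seen in Polk lay outside both intervals.

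Xpc (chromosome 6, 91489305 to 91515888), the damage sensor of global genome repair, was at 67.6, 72.8 and 61.2 CPM of RNA in siKrr1 A, C and D and at 67.2, 72.1 and 67.3 CPM in siGFP, siNC and Lipo. Its footprints were at 40.6, 42.1 and 42.1 CPM in siKrr1 A, C and D and at 41.2, 44.9 and 40.6 CPM in siGFP, siNC and Lipo. The groups overlapped in both assays. The log2 fold change was -0.04 in RNA (edgeR adjusted p = 0.851; 95% interval -0.22 to 0.15) and -0.02 in footprints (edgeR adjusted p = 0.883; -0.18 to 0.13).

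Rrm2b (chromosome 15, 37923952 to 37961119), the p53-inducible small subunit of ribonucleotide reductase, had the fewest reads, between 67 and 145 per RNA library and between 64 and 75 per footprint library. RNA was at 2.15, 3.11 and 3.83 CPM in siKrr1 A, C and D and at 2.57, 2.38 and 2.93 CPM in siGFP, siNC and Lipo, with siKrr1 A below and siKrr1 D above all controls. Footprints were at 3.37, 2.68 and 2.404 CPM in siKrr1 A, C and D and at 3.402, 2.38 and 2.90 CPM in siGFP, siNC and Lipo. The difference of 0.21 on the log2 scale in RNA (edgeR adjusted p = 0.658; 95% interval -0.30 to 0.72) and -0.04 in footprints (edgeR adjusted p = 0.941; -0.53 to 0.45) did not pass the test, and the RNA interval covers a rise of the size seen in Zmat3. The S-phase subunit Rrm2 fell by 0.33 in RNA (edgeR adjusted p = 0.0277) and by 0.36 in footprints (0.00284), with the RNA call lost without siGFP, siNC or Lipo.

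**Figure D2:**
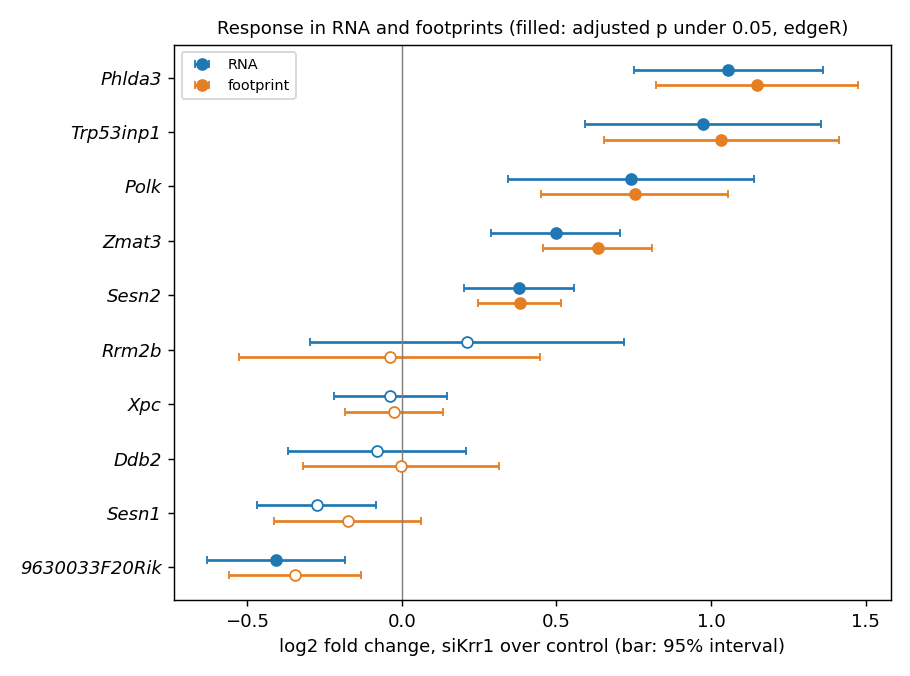
Log2 fold change of siKrr1 over control (horizontal axis) for RNA and footprints, with 95% intervals; filled markers passed an edgeR adjusted p under 0.05. Phlda3 (1.06 in RNA, 1.15 in footprints) stands at the top, and 9630033F20Rik (-0.41 in RNA) at the bottom.

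The lysates of the 3 Krr1 siRNAs differed in how far the genes moved. For each of the 5 genes that rose, siKrr1 C was the lowest knockdown library in both RNA and footprints. The median of these 5 genes lay 0.90, 0.32 and 0.96 above the control mean on the log2 scale in RNA of siKrr1 A, C and D, and 0.93, 0.47 and 0.83 in footprints. In controls the same median lay between -0.07 and 0.12 in RNA and between -0.01 and 0.01 in footprints. Krr1 RNA was lowest in siKrr1 A and highest in siKrr1 D, and Krr1 footprints were lowest in siKrr1 A and highest in siKrr1 C. In RNA siKrr1 C, the lowest for the 5 genes, was thus not the library with the most Krr1. In footprints each of the 5 genes was highest in siKrr1 A, then siKrr1 D, then siKrr1 C, the reverse of the order of Krr1. A link between Krr1 level and these genes was not tested. Among controls, siGFP was the highest library in RNA for each of the 5, at 0.22 for Phlda3 and 0.15 for Trp53inp1 above the control mean; in footprints this held for Phlda3 (0.10) and Zmat3 (0.02), and not for the other genes.

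**Figure D3:**
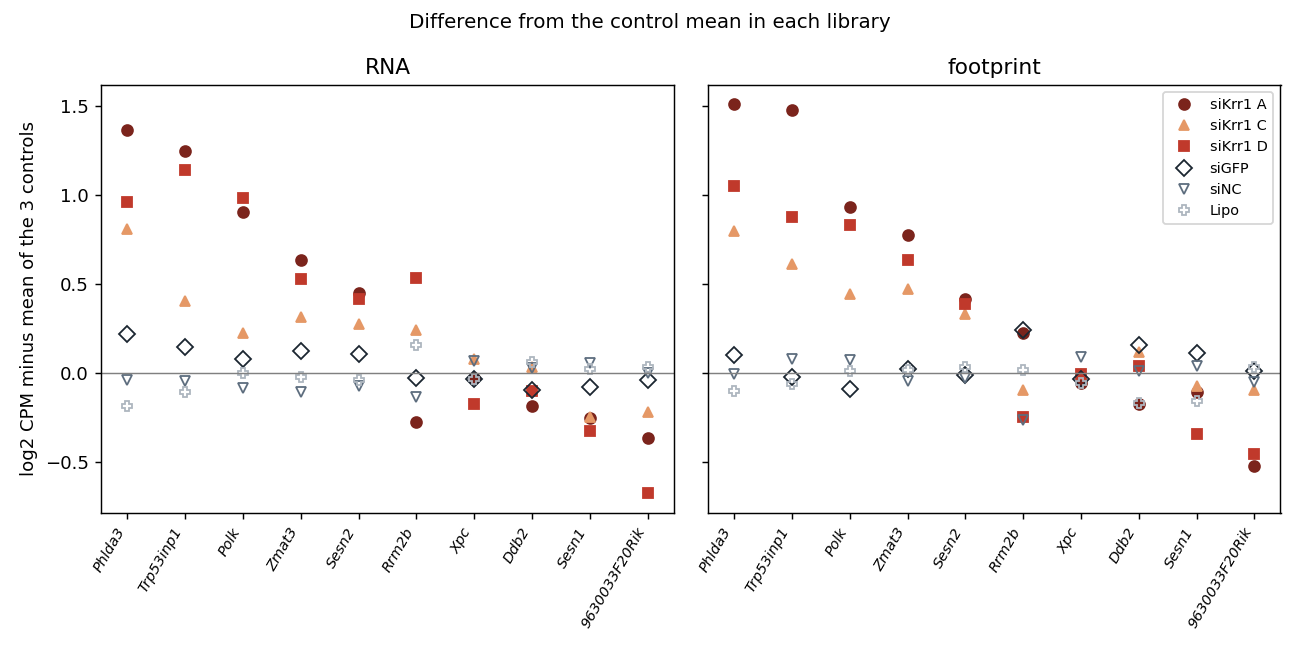
Log2 CPM of each library minus the mean of the 3 controls (vertical axis) for each gene, in RNA and footprints, with filled markers for siKrr1 and open markers for control libraries. The siKrr1 C markers lie below those of siKrr1 A and D for each gene that rose, as at 0.41 in Trp53inp1 RNA against 1.25 in siKrr1 A and 1.14 in siKrr1 D.

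The change in footprints followed the change in RNA, and no difference between them was detected. Translational efficiency, the footprint level relative to the RNA level, was tested as the interaction of assay and condition over the 12 libraries. None of the 10 genes was called (0 of 10, with 0 at an unadjusted p under 0.05), and neither was any of the 14236 genes tested, so 0% of genes were called higher and 0% lower with edgeR; 337 genes had an unadjusted p under 0.05, and DESeq2 called 2. For Phlda3 the log2 change in efficiency was 0.09 (95% interval -0.40 to 0.58), for Trp53inp1 0.06 (-0.55 to 0.66), for Polk 0.01 (-0.52 to 0.53), for Sesn2 0.00 (-0.21 to 0.20) and for Zmat3 0.13 (-0.14 to 0.41), each with an edgeR adjusted p of 1.00. This edgeR fit did not pair the libraries of a lysate. For Phlda3, Trp53inp1 and Polk its intervals leave room for changes of up to about the size of the RNA response of Zmat3. The ratio of Zmat3 footprints to RNA was 0.976, 0.983 and 0.950 in siKrr1 A, C and D, above the 0.826, 0.923 and 0.906 of siGFP, siNC and Lipo. Zmat3 was the member of the 10 without overlap in this ratio, and 6.75% of all genes tested lay likewise above their controls and 5.32% below them.

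The group means of this ratio differed more between genes than between conditions; between genes it also depends on how much of a transcript is coding, and it is given as a description. Trp53inp1 had the lowest mean ratio, 0.520 ± 0.094 in siKrr1 and 0.495 ± 0.050 in control lysates (SD, n = 3 each), which put it between the 14.8th and 28.3rd percentile of genes in siKrr1 and between the 17.7th and 24.6th in control lysates. Phlda3 was at 0.618 ± 0.035 in siKrr1 and 0.588 ± 0.041 in control lysates, and Xpc at 0.622 ± 0.058 in siKrr1 and 0.613 ± 0.010 in control lysates. Sesn1 (0.701 ± 0.050 in siKrr1 and 0.656 ± 0.085 in control lysates) carried fewer footprints per RNA than Sesn2 (0.933 ± 0.032 in siKrr1 and 0.934 ± 0.067 in control lysates), with every lysate's value for Sesn1 below every value for Sesn2. Polk stood at 1.15 ± 0.15 in siKrr1 and 1.12 ± 0.13 in control lysates, in the upper part of the genes. The median over all genes tested was 0.847 to 0.863 per lysate.

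**Figure D4:**
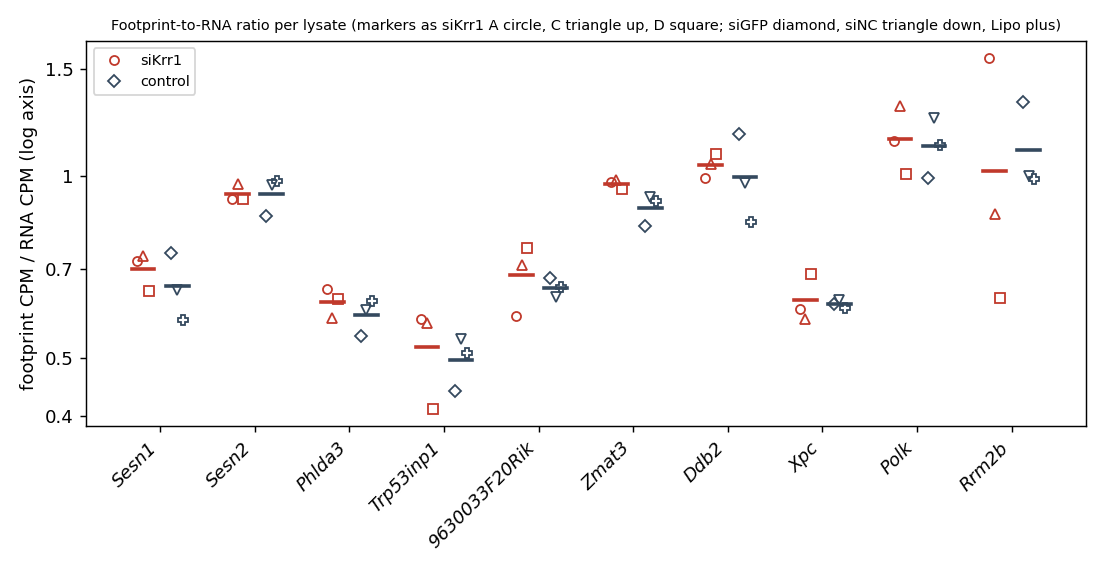
Footprint CPM divided by RNA CPM of the same lysate (vertical axis, logarithmic) for each gene in siKrr1 and control lysates, with group means as bars (n = 3). Trp53inp1 is lowest at about 0.5 and Polk is near 1.1 in both groups, while Rrm2b spreads from 0.628 to 1.56 in siKrr1 lysates.

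Promoter windows were read for the members that the RefSeq table holds (GRCm38.p6, which is mm10). It covered 5 of the 10 genes with 7 windows, each running from 250 bases before to 50 after a transcript start: Phlda3, Sesn2 and 9630033F20Rik with 1 window each and Sesn1 and Polk with 2. Rrm2b, Ddb2, Xpc, Trp53inp1 and Zmat3 were not in it. Each was searched for the p53 half-site consensus, a palindrome that reads the same on both strands, of purines, then C, A or T, A or T, G, then pyrimidines, 10 bases in all. A full match was found in 2 of the 7 windows, beside 8.36% of 32851 windows of all genes. These were the inner start of Polk, which rose, and the downstream start of Sesn1, which did not. With 1 mismatch outside the C and G, 3 of 7 windows matched, now including 9630033F20Rik, beside 50.9% of all windows. No window held a pair of such half-sites, each with up to 1 mismatch and at most 13 bases apart, the form that p53 binds as a tetramer, and 2.71% of all windows did. The bases before the start are shown for both matching windows and for Phlda3, the strongest responder, whose window held none; only Polk was due by the rule for printed promoters, and the others were chosen after their values were seen. Capitals mark the full match, at 231 bases before the start in Polk and 173 in Sesn1, and the letters run 5′ to 3′ on the strand of the gene. A match is a description of the letters and not evidence of binding.
Polk inner start, chr13:96519188-96519437, minus strand: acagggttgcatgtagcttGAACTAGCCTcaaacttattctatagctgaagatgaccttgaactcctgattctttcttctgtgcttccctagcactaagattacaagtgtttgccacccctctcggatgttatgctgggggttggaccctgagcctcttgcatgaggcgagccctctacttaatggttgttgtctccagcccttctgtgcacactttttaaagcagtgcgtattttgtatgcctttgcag
Sesn1 downstream start, chr10:41887189-41887438, plus strand: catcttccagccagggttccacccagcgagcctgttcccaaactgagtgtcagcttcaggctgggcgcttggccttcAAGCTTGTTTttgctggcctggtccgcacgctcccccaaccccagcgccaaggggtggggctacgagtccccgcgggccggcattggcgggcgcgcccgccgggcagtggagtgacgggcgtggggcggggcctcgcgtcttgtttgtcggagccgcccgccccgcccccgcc
Phlda3, chr1:135765835-135766084, plus strand: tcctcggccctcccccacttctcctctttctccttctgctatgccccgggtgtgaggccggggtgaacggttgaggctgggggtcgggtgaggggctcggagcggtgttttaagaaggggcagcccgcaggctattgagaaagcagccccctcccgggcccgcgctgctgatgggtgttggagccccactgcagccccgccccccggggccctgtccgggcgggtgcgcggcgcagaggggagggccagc

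Some other genes of the p53 pathway rose like the 5, and most of the rest were not called. This list and those that follow were also chosen with earlier results of these data known, so their counts are a description. Over all genes tested, 2.69% were called higher and 2.11% lower in RNA, and 3.39% and 2.68% in footprints. Of 20 p53 regulators and cell cycle targets 7 rose, 1 fell and 12 were not called in RNA. In footprints 5 rose, 1 fell and 14 were not called. Their median log2 fold changes were 0.18 in RNA and 0.23 in footprints. Mdm2, the ligase of p53, rose by 0.63 in RNA and 0.93 in footprints (edgeR adjusted p = 0.0249 and 0.00705), and the kinase Plk2 by 1.17 and 1.33 (0.00799 and 0.0035). Ccng1, a cyclin induced by p53, rose in RNA by 0.85 (0.0101). Its footprints were at 0.51 and were not called (edgeR adjusted p = 0.0647), with overlapping groups. The antiproliferative gene Btg2 rose in RNA (0.50) and footprints (0.67). The member that fell was Klf4, a pluripotency factor (-0.61 in RNA, -0.64 in footprints). Of 19 cell death targets 6 rose and 0 fell in RNA, and 8 of 18 rose and 0 fell in footprints (medians 0.36 and 0.41). Among them were the BH3-only gene Pmaip1 (1.24 in RNA, 1.15 in footprints), the membrane gene Perp (1.07, 1.01), the receptors Eda2r (0.94, 0.81) and Tnfrsf10b (0.60, 0.71), and the nuclease Aen (0.27, 0.37). RNA of Trp53 itself was at 0.24 (edgeR adjusted p = 0.116) and its footprints at 0.24 (0.112).

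Further p53 targets with metabolic, repair or signalling roles behaved in part like the 5. Of 30 such genes 9 rose and 1 fell in RNA and 12 rose and 1 fell in footprints (medians 0.33 and 0.32). Not called were 20 in RNA and 17 in footprints. Of all genes tested, 2.69% in RNA and 3.39% in footprints were called higher, and 2.11% and 2.68% lower. The thiamine transporter Slc19a2 rose by 0.72 in RNA and 0.69 in footprints (edgeR adjusted p = 0.00587 and 0.00255), the adenylate kinase Ak1 by 0.69 and 0.60 (0.0032 and 0.00356), and the exocyst subunit Exoc4 by 0.49 and 0.54 (0.012 and 0.004). The member that fell was the mitochondrial superoxide dismutase Sod2 (-0.42 in RNA, -0.40 in footprints), chosen after its values were seen. Tnfrsf10b is on this and the cell death list, and Ercc5 on this and the repair list below. With 1 library left out, 2 to 12 genes of this list were called higher in RNA and 4 to 15 in footprints. Over the cell death list it was 1 to 9 and 2 to 11, and over the regulators 2 to 8 and 1 to 8. Of all genes, 0.442% to 5.31% were called higher in RNA in these fits and 0.499% to 5.86% in footprints. The lowest RNA counts of these 3 lists came without siGFP, siNC or Lipo alike, the lowest footprint counts without Lipo (for the cell death list also without siNC), and the highest counts without siKrr1 C.

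Partners of the 10 genes in their own pathways were counted next, beside the 4.80% of all genes in RNA and 6.07% in footprints that were called either way. Of 28 nucleotide excision repair genes 1 rose in RNA, the endonuclease Ercc5 (0.61, edgeR adjusted p = 0.023). In footprints 3 rose, Ercc5 (0.62), Cul4a (0.36) and Cul4b (0.27), the last 2 being ubiquitin ligase scaffolds. In the main edgeR fits 0 fell, and 5 genes in RNA and 9 in footprints had an unadjusted p under 0.05. With edgeR 1 was called lower in RNA without siKrr1 C, and 1 in the fit over both assays. Without siGFP, siNC or Lipo 0 repair genes were called higher in either assay; without siKrr1 A or D it was 0 in RNA and 2 in footprints, and without siKrr1 C it was 3 and 4. Ddb1, the partner of Ddb2, was at 0.24 in RNA (edgeR adjusted p = 0.109) and 0.20 in footprints (0.0661). Of 15 translesion synthesis genes the scaffold polymerase Rev1 rose (0.53 in RNA, 0.54 in footprints; edgeR adjusted p = 0.0317 and 0.0131) and the sliding clamp Pcna fell in RNA (-0.35, edgeR adjusted p = 0.0289), standing at -0.15 in footprints (0.222). In RNA both calls were lost without any library other than siKrr1 C, and in footprints the Rev1 call was lost without siGFP, siNC or Lipo. The Y-family polymerases Polh (-0.02 in RNA, 0.05 in footprints) and Poli (-0.10, -0.02) were not called. Of 16 genes of deoxynucleotide supply, 2 fell in RNA and footprints alike, Rrm2 and the thymidine kinase Tk1 (-0.42 in RNA, -0.43 in footprints), and 0 rose with edgeR. Without siGFP, siNC or Lipo 0 of them were called lower in RNA and without siKrr1 A 1, and in footprints 1 was called lower without siNC or Lipo. Of 14 AKT pathway and Phlda genes, Phlda2 fell in both assays and Phlda1 rose in footprints. Without any library other than siKrr1 C, 0 of this list were called lower in RNA, and without siKrr1 A, siKrr1 D, siNC or Lipo 0 were called higher in footprints.

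None of 25 sestrin partners and mTORC1 gating genes was called in the main edgeR fit of either assay. An unadjusted p under 0.05 was found for 5 in RNA and for 2 in footprints. In RNA 1 was called higher by DESeq2, by edgeR without siKrr1 C and by 1 edgeR fit over both assays. Sec13, a GATOR2 subunit, was at 0.03 in RNA and 0.05 in footprints, and the autophagy receptor Sqstm1 at -0.04 and -0.01. None of 18 genes of fructose-2,6-bisphosphate control and the pentose phosphate shunt, the pathway of Tigar, was called in the main edgeR fits. Of these, 6 in RNA and 4 in footprints had an unadjusted p under 0.05. DESeq2, and likewise edgeR without the filter on low counts, called 2 lower in RNA, and 1 higher and 1 lower in footprints. With edgeR 1 was called lower in each assay without siKrr1 D, and 2 higher in footprints without siKrr1 C. The hexokinase Hk2 was at -0.03 in RNA and 0.02 in footprints and the transketolase Tkt at 0.02 and -0.08. Of 25 ATF4 and amino acid response genes, the other pathway known to control Sesn2, 11 fell and 0 rose in RNA and 14 fell and 0 rose in footprints in the main edgeR fits (16 and 20 at an unadjusted p under 0.05), with medians of -0.33 and -0.38. In footprints 1 was called higher by edgeR without the filter on low counts, and 1 without siKrr1 C. Herpud1 (-0.65 in RNA, -0.67 in footprints), Pck2 (-0.86, -0.78) and Atf4 (-0.43, -0.62) were among them. The part of this pathway or of p53 in the rise of Sesn2 was not tested. Without Lipo 2 of this list were called lower in RNA and 4 in footprints, and without siNC 3 and 8. In RNA 6 were called lower without siGFP and 6 without siKrr1 A.

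The genes with the profile most like the mean of the 10 members were sought among 6111 others whose mean reached 20 CPM in each assay, as the Pearson correlation of log2 CPM minus the control mean over the 12 libraries. The libraries fall into knockdown and control groups, so these values largely mark the shared difference between the groups, and the RNA and footprint libraries share lysates. The first 5 were Mgmt, the O6-methylguanine repair enzyme (r = 0.988), the intraflagellar transport gene Wdr35 (0.986), Plk2 (0.984), the small GTPase Rap2b (0.979) and the kinase Stk17b (0.979). Mgmt was 0.46 higher in RNA and 0.51 in footprints on the log2 scale. For Phlda3 alone they were Tmem63b (0.992), Wdr35 (0.991) and Rap2b (0.990). For 9630033F20Rik they were the aminopeptidase Lap3 (0.971), the lipid phosphatase Fig4 (0.970) and the secreted factor Angptl4 (0.966), whose RNA stood at -0.33, -0.31 and -0.26.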

How the data were processed

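Raw counts of reads per gene symbol were deposited as 1 table per assay, and the submitters' processing notes name STAR, HTSeq and the build mm10; the sources used here give no versions, annotation or strand setting, so reads of overlapping genes on opposite strands may be mixed. Reads on no gene (31.2% to 33.4% of unique RNA alignments, 57.5% to 63.3% of footprint alignments) and ambiguous reads entered neither library sizes nor tests. Columns of the knockdown carry letters that the titles do not, so they were assigned to group and assay; no column was left unused (0).

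Genes were kept by filterByExpr and tested with edgeR 4.0.16 (limma 3.58.1, R 4.3.3; TMM factors, quasi-likelihood) on all genes of each table, with Benjamini-Hochberg adjustment and calls at 0.05. CPM are counts scaled to the TMM-adjusted number of reads on genes. Standard errors were taken from the F statistic, and 95% intervals are not adjusted for multiple tests. Log2 differences of single libraries used a prior count of 2. Alternatives were DESeq2 1.42.0, RLE factors, no filter, 1 fit over both assays, each lysate left out, and the lysate as a block. Lysates were paired between assays by the labels, which state a divided lysate, and by shared column names; deviations from group means of 6117 genes correlated with r from 0.265 to 0.713 within a lysate. Libraries of a group were no duplicates (chi-square per degree of freedom 4.03 to 28.7). The fits were tested on simulated data.

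Members and gene lists were chosen with earlier results of these data known. The genes named are the 10 members, Krr1 and up to 4 called members per list and assay with the smallest adjusted p (otherwise the 2 most abundant); others are marked in the text. By the rule, the promoter to print was that of the member called in both assays with the best half-site match, which was Polk. Those of Sesn1 and Phlda3 were added after their values were seen. No file with protein sequences was used here.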

Additional observations from a re-analysis of the deposited data

How the results depend on the processing

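All 6 calls in RNA and all 5 in footprints were kept with RLE factors, DESeq2, no filter on low counts and 1 fit over both assays, and no called log2 fold change turned its sign under any alternative. Footprints of 9630033F20Rik changed their call: 1 member was called lower in footprints with DESeq2 and 1 without the filter (edgeR adjusted p = 0.00382), as well as 1 without siKrr1 C, against 0 in the main setting. With 1 lysate left out, 1 to 5 members were called higher and 0 to 1 lower in RNA, and 3 to 5 higher and 0 to 1 lower in footprints. Fewer samples enter these fits. The share of all genes called higher was then 0.442% to 5.31% in RNA and 0.499% to 5.86% in footprints. With DESeq2 the share in RNA was 4.74%, against 2.69% with edgeR. The replicate block, pairing the libraries of a lysate, left 0 members called in translational efficiency and changed no call of a member (Zmat3 at 0.13, edgeR adjusted p = 0.788); over all genes 5 were then called higher and 1 lower. Among the smaller lists, DESeq2 called 2 repair genes higher and 1 lower in RNA, 2 translesion genes lower in RNA and 1 in footprints, and 0 AKT pathway and Phlda genes higher and 2 lower in footprints. Without the filter 2 repair genes, and with 1 fit over both assays 3, were called higher in RNA. The pair of half-sites was a search chosen after seeing the data. Reads were fewest for Rrm2b (64 to 145 per library), whose intervals were the widest of the members not called; the cause of that width was not tested.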
